A study of Mus musculus with 6 samples.

Results

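The genes described here encode 10 secreted or transport proteins of mucosal defence, namely Ltf, Lcn2, Slpi, Reg3g, Bpifa1, Bpifb1, Pigr, Saa1, Saa3 and Wfdc2. They were taken by name from a table of 44519 rows, in which all 10 were found. Each symbol was read from the row of highest mean expression that names it. Of the 10 genes, 9 reached at least 1 FPKM, a level scaled to transcript length and library size, in at least 3 of 6 libraries and entered the test, and Saa1 did not. Each of these 9 reached 1 FPKM in libraries of both groups, so none entered through a single group.

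The surface of a mucosa is covered by fluid that carries proteins made by the epithelium and its glands. Some of these proteins withhold iron from bacteria, some bind bacterial walls or inhibit proteases released during inflammation, and the polymeric immunoglobulin receptor carries immunoglobulin A across the epithelium into the fluid. The nasal lining, the olfactory epithelium included, is in constant contact with inhaled microbes, and many of these genes respond to cytokines elsewhere in the airway.

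Horizontal basal cells, the keratin-positive reserve stem cells of the olfactory epithelium, were sorted as GFP-positive cells from the olfactory neuroepithelium of mice with the Krt17-EGFP reporter, and bulk RNA sequencing measured their mRNA. The control group held 3 libraries (replicates 1, 2 and 4) of genotype Krt17-EGFP, described in the labels as without doxycycline. The TNF group held 3 libraries (replicates 1, 3 and 4) of genotype Krt17-EGFP; Cyp2g1-rtTA; TRE-TNF after 6 weeks of doxycycline, in which rtTA, driven by the promoter of the sustentacular cell gene Cyp2g1, switches on tumor necrosis factor (TNF). The reporter is shared by both groups, the 2 transgenes and doxycycline are not, and their effects cannot be told apart. Neither the age of the mice nor the number of animals behind a library is in the labels. The p-values therefore cover the spread among these samples only, and that spread may be technical. Values of single libraries are given in the order of control replicates 1, 2 and 4 and of TNF replicates 1, 3 and 4.

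FPKM gives no read depth, which is therefore not known here, and summed to 688190 to 838417 per library. The defining markers of the sorted cell type were present in every library: Trp63 was at 68.6 to 117 FPKM and the merged row of Krt14 and Krt17 at 402 to 5651 FPKM. Markers of other cell types were present too. Olfactory neuron markers summed to 4224 to 8750 FPKM in controls and to 41.5 to 991 FPKM in TNF libraries. Sustentacular cell markers summed to 3466 to 8528 FPKM in controls and to 4598 to 9877 FPKM in TNF libraries. The basal cell marker list summed to 764 to 3342 FPKM in controls and to 4992 to 7769 FPKM in TNF libraries. In every control library the neuron sum and the sustentacular sum were both above the basal cell sum. In every TNF library the neuron sum was below it. The lists hold different genes, so their sums do not give shares of neurons, sustentacular cells or other cells. The part of these cells in the changes of the 10 genes was not tested. Control replicate 4 correlated with the other controls at 0.922 and 0.931 across genes, which are not independent replicates, against 0.972 between those controls. TNF replicate 1 correlated with the other TNF libraries at 0.909 and 0.912, against 0.983 between them. Except where stated, results that rest on control replicate 4 or TNF replicate 1 are given with and without them. In bulk samples, fewer cells of a type and less RNA per cell cannot be told apart.

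Of the 10 genes, 7 were higher in TNF libraries, 0 were lower, 2 did not pass the test and 1 was not tested (limma on log2(FPKM + 1), adjusted p below 0.05 over 15037 rows, n = 3 per group). At an unadjusted p below 0.05 the count of lower genes was also 0. Ltf, Lcn2, Slpi, Reg3g, Pigr, Saa3 and Wfdc2 rose, by 1.69 (Wfdc2) to 4.92 (Saa3) on the log2 scale, and in each of these 7 every TNF library lay above every control library. Over all rows tested, 10.9% were higher and 27.2% lower, and TNF libraries lay above all controls in 16.8%. The median log2 change over all rows was −0.22 as deposited. It was 0.00 after median-of-ratios scaling, where the same 7 genes rose beside 15.6% of all rows, and −1.51 after scaling to the basal cell marker list, where Slpi, Saa3, Pigr and Lcn2 rose beside 1.46% of all rows and Bpifa1 fell beside 57.7%. Of all calls, 28.6% were upward as deposited, 42.3% after median-of-ratios scaling, 48.1% after quantile normalization and 2.46% after scaling to the marker list. Without control replicate 4 and TNF replicate 1 together, the same 7 rose, beside 18.9% of all rows, and Bpifa1 fell, beside 39.7%. Without TNF replicate 3 the count of higher genes was 4, beside 6.24% of all rows. Without TNF replicate 4 it was 5, beside 6.76%.

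**Figure D1:**
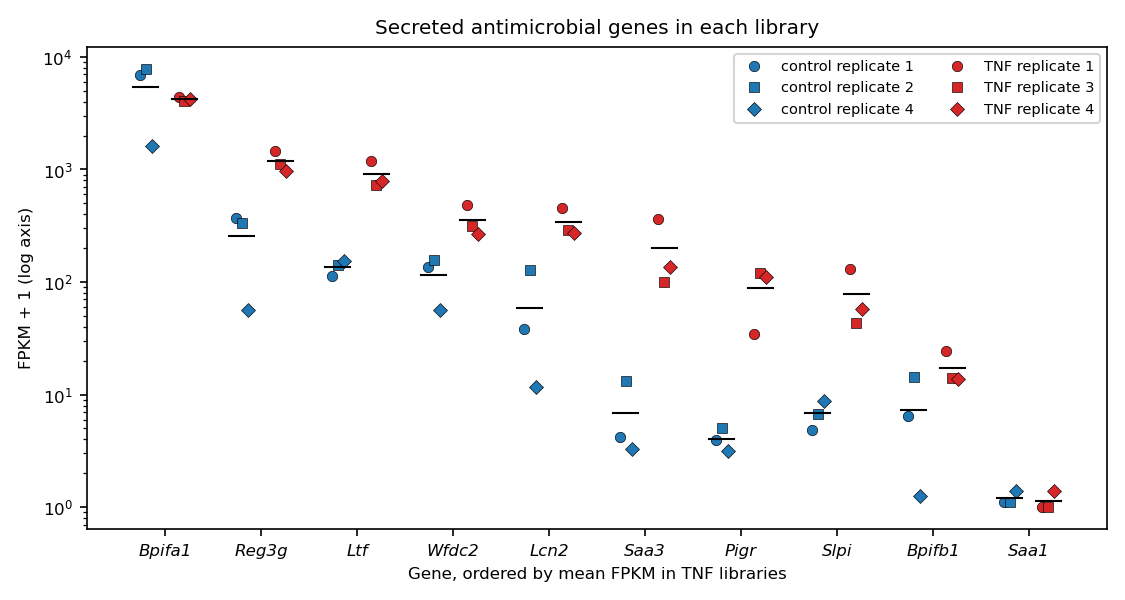
FPKM + 1 on a log axis for the 10 genes by library. Blue points are controls and red points TNF libraries, each library has its own marker shape, and black lines give group means. The TNF points lie above all control points for Reg3g, Ltf, Wfdc2, Lcn2, Saa3, Pigr and Slpi, while the groups overlap for Bpifa1, Bpifb1 and Saa1.

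The stretches just before the transcription starts are shown because 7 of these genes rose in the same libraries and 1 abundant member, Bpifa1, did not. They were read from RefSeq (GRCm38.p6), in which all 10 genes matched, as the 250 bases before each annotated start. Patterns were counted over the full 250 bases. The printed sequences leave out bases that GENCODE M21 gives as an exon of the gene. Of the 10 genes, 7 are printed. Much of the Lcn2 and Wfdc2 windows lies in such exons, and Bpifb1 was neither called nor abundant. The sequences run 5′ to 3′ on the strand of the gene. Capitals mark matches on either strand of TTGCNNAA, a pattern of the kind that C/EBP factors bind, and of GGG and CC with any 5 bases between them, a loose form of the site that NF-kB binds.
Ltf, chr9:111019042-111019270, plus strand: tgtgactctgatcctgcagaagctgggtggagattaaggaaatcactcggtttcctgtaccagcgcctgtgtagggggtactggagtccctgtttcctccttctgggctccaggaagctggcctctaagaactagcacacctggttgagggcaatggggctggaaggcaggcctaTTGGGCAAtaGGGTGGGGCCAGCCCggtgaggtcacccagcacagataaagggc
Slpi, chr2:164356508-164356757, minus strand: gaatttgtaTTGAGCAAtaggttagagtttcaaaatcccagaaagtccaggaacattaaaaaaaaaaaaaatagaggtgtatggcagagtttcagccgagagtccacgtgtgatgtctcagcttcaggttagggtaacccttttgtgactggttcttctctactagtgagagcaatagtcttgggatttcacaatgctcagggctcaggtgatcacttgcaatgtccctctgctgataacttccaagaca
Saa3, chr7:46715701-46715926, minus strand: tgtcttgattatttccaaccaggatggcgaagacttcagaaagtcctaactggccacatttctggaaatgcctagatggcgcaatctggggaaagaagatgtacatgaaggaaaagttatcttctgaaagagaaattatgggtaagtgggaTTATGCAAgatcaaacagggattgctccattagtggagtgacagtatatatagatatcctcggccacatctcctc
Saa1, chr7:46742981-46743230, minus strand: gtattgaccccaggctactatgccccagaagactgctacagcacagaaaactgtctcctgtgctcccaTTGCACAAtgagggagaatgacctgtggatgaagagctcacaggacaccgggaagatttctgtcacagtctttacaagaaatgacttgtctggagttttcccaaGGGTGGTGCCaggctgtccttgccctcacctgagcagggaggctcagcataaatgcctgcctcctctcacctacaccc
Reg3g, chr6:78468875-78469124, minus strand: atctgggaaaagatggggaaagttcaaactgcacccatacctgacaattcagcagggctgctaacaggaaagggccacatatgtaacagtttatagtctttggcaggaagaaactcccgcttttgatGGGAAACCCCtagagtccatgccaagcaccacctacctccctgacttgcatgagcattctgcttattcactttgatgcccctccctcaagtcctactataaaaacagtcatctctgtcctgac
Pigr, chr1:130826434-130826683, plus strand: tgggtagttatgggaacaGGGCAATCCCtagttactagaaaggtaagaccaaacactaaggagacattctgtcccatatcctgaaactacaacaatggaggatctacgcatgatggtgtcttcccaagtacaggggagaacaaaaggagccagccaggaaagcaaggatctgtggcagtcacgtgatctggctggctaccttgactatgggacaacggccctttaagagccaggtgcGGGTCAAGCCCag
Bpifa1, chr2:154142630-154142879, plus strand: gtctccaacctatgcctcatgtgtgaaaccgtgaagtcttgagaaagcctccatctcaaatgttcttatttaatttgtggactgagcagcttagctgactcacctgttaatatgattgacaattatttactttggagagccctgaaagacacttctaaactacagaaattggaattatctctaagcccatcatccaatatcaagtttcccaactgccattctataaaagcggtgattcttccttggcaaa
The C/EBP-type pattern was found in the windows of 5 of 10 genes (Lcn2, Slpi, Saa3, Saa1 and Ltf), against 9.6% of 32851 RefSeq windows of the same 250 bases. The looser TTNCNNAA was found in 7 genes, Bpifa1 among them, against 36.8% of windows. The stricter TTGCNNAAT was found in 4, against 2.1%. A gene was counted if any of its windows matched, whereas the shares are of single windows. Counted from the annotated start, the matches of TTGCNNAA began at −75 in Ltf, −99 in Saa3, −182 in Saa1, −216 in Lcn2 and −241 in Slpi. The Lcn2 match, TTGCTCAA, lies in an exon of other GENCODE transcripts and is therefore not printed in context. The NF-kB-type pattern was found in 7 of 10 genes (Pigr, Lcn2, Bpifb1, Wfdc2, Reg3g, Saa1 and Ltf), against 45.8% of all windows. With a T required at the middle of the 5 bases it was found in 2 (Pigr and Reg3g), against 15.9% of windows, and 4 other spellings of that site were found in 0 of the 10. Of its matches, 3 in Ltf, 2 in Pigr and 2 in Bpifb1 overlap one another. The NF-kB-type match in Wfdc2 lies outside the stretch kept for that gene once exons were removed. TTCNNNGAA, the form that STAT factors bind, was found in a window of Bpifb1 alone (7.0% of all windows), and TGANTCA, the AP-1 form, in Bpifa1 alone (6.7%). A TATA box, TATAAA, was found in Bpifa1 and Reg3g (12.4%). These patterns were taken from 13 spellings looked at with the results known, and a match describes letters, not binding.

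Both genes for proteins that keep iron from bacteria rose. Ltf (chromosome 9, 111019271 to 111042767, mm10) encodes lactoferrin, which binds free iron and is found in secretions and in neutrophil granules. Its level was 111, 141 and 152 FPKM in controls, against 1199, 719 and 787 FPKM in TNF libraries. The controls lay close together and every TNF library was above them. The log2 change was 2.71 ± 0.26 (SE, adjusted p = 0.000697), and it passed when any library was left out. Lcn2 (chromosome 2, 32384633 to 32388252) encodes lipocalin 2, which captures the siderophores with which bacteria collect iron. Controls held 37.0, 127 and 10.7 FPKM of it, and TNF libraries 458, 287 and 273 FPKM. On the log scale the controls spread more widely than the TNF libraries, without reaching them. Its log2 change was 3.11 ± 0.80 (adjusted p = 0.0222). The call was lost without control replicate 1 (adjusted p = 0.0680), TNF replicate 3 (0.0574) or TNF replicate 4 (0.0515), with log2 changes of 2.25 to 3.97 over the 6 omissions. The log2 ratio of Ltf to Lcn2, which no scaling of a library moves, was 1.59, 0.16 and 3.83 in controls and 1.32 to 1.53 in TNF libraries.

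Slpi and Wfdc2, which share the whey acidic protein (WAP) fold, both rose, from very different control levels. Slpi (chromosome 2, 164354070 to 164389095), the secretory leukocyte protease inhibitor that blocks neutrophil elastase, measured 3.89, 5.77 and 7.73 FPKM in controls. In TNF libraries it measured 131, 42.3 and 56.6 FPKM. TNF replicate 1 stood highest, and the groups did not overlap. The log2 change was 3.38 ± 0.44 (adjusted p = 0.00173) and passed under all 16 alternatives. The microRNA gene Mir7678 lies inside an exon of Slpi, so their reads cannot be told apart.

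Wfdc2 (chromosome 2, 164562413 to 164568510), an abundant secreted WAP protein of airway epithelium, had 136, 155 and 55.1 FPKM in controls. The TNF libraries had 483, 311 and 268 FPKM. Control replicate 4 was the lowest library, and the groups did not overlap. The log2 change of 1.69 ± 0.43 (adjusted p = 0.0213) was the smallest among the 7 that rose. It missed the threshold without TNF replicate 3 (adjusted p = 0.0554), and scaling to the basal cell marker list reduced it to 0.25.

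Reg3g (chromosome 6, 78466269 to 78468911) encodes a secreted C-type lectin that binds the peptidoglycan of Gram-positive bacteria. Control levels were 368, 335 and 55.8 FPKM, and TNF levels were 1459, 1120 and 975 FPKM. Among the genes that rose it had the highest mean in both groups, with a range that overlapped that of Ltf, and in control replicate 4 it lay below Ltf. The log2 change was 2.61 ± 0.71 (adjusted p = 0.0274). Without control replicate 4 it was 1.73 (adjusted p = 0.00691), and the call was lost without TNF replicate 1, 3 or 4 (adjusted p = 0.0545, 0.0719 and 0.0601).

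Neither Bpifa1 nor Bpifb1, the BPI fold genes among the 10, passed the test. Bpifa1 (chromosome 2, 154142826 to 154168450) encodes a surfactant-like protein of nasal fluid that impairs bacterial biofilm. Controls held 6920, 7817 and 1609 FPKM, which ranked 7, 8 and 29 among all rows of those libraries. TNF libraries held 4376, 4075 and 4232 FPKM, with ranks of 17, 10 and 10. The TNF libraries lay within 1 narrow band between control replicate 4 and the other controls. The log2 change was −0.07 with a 95% interval of −1.72 to 1.59 (adjusted p = 0.947). Its sign depended on the setting: it was −0.80 without control replicate 4 (adjusted p = 0.242), −0.82 without control replicate 4 and TNF replicate 1 (adjusted p = 0.00761) and 0.18 after median-of-ratios scaling. The table holds 4 further rows named Bpifa1 at the same locus, none above 4.75 FPKM in any library, and the span of the row also holds Bpifa5, itself listed at 0.

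Bpifb1 (chromosome 2, 154190818 to 154220369), a longer relative found in airway mucus, measured 5.42, 13.2 and 0.267 FPKM in controls. TNF libraries measured 23.2, 13.1 and 12.8 FPKM. Control replicate 2 lay inside the range of the TNF libraries, so the groups overlapped. The log2 change was 1.78 with an interval of −0.21 to 3.78 (adjusted p = 0.139), and without control replicate 2 it was 2.56 and passed (adjusted p = 0.0441). Without control replicate 4 it was 0.81.

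Pigr (chromosome 1, 130826684 to 130852249) encodes the receptor that carries polymeric immunoglobulin A through epithelial cells and is cleaved to leave its secretory component on the antibody. Its level was 2.94, 4.04 and 2.17 FPKM in controls, against 33.9, 118 and 110 FPKM in TNF libraries. All controls were low, and TNF replicate 1 was the lowest TNF library. The log2 change was 4.28 ± 0.49 (adjusted p = 0.00117), or 4.86 without TNF replicate 1, and it passed under all 16 alternatives.

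The serum amyloid A genes, known as acute phase genes of liver and epithelium, differed in level. Saa3 (chromosome 7, 46711998 to 46715676) had 3.22, 12.2 and 2.25 FPKM in controls. TNF libraries had 364, 98.3 and 136 FPKM, with the highest value in TNF replicate 1 and no overlap between groups. Its log2 change of 4.92 ± 0.66 (adjusted p = 0.00193) was the largest among the 10 genes with all libraries and passed under all 16 alternatives. Without TNF replicate 1 it was 4.37, below the 4.86 of Pigr. Saa1 (chromosome 7, 46740501 to 46742980), a neighbour of Saa3, was at 0.113, 0.114 and 0.396 FPKM in controls. In TNF replicates 1 and 3 it was listed at 0, and in TNF replicate 4 at 0.394 FPKM. Saa1 and its close copy Saa2 can share reads, but Saa2 was at most at 0.233 FPKM. The windows of both genes, printed above, hold a C/EBP-type match.

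**Figure D2:**
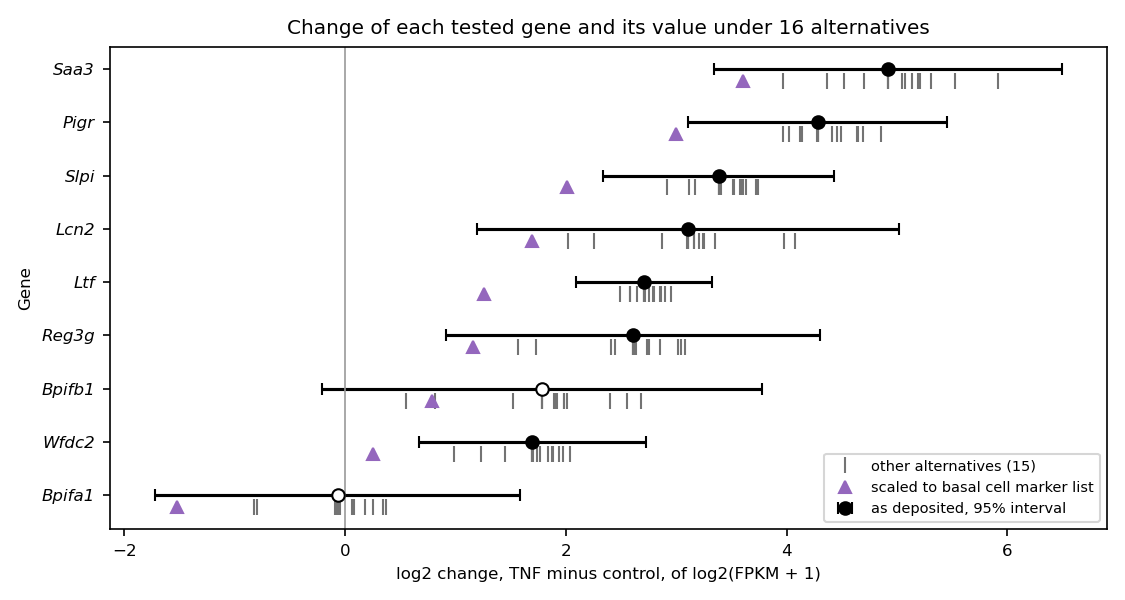
Log2 change (TNF minus control, x axis) of the 9 tested genes, with black circles and bars for the values as deposited and their 95% intervals, filled where the adjusted p was below 0.05. Grey ticks give the other alternatives that fitted the gene and the purple triangle the scaling to the basal cell marker list, which gave the lowest value for 8 of the 9 genes and moved Wfdc2 to 0.25.

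The level order of the genes differed little between the groups at its upper end. Bpifa1 had the highest mean in both groups, followed by Reg3g and Ltf, whose ranges overlapped in controls and in TNF libraries. In controls, neighbours in the order from Reg3g through Ltf, Wfdc2, Lcn2, Bpifb1, Saa3 and Slpi to Pigr all had overlapping ranges. In TNF libraries the range of Ltf stood clear above that of Wfdc2, and that of Slpi above that of Bpifb1, while Wfdc2, Lcn2, Saa3, Pigr and Slpi each overlapped the next. Without Bpifa1, the 9 other genes summed to 286 to 792 FPKM in controls and to 2619 to 4150 FPKM in TNF libraries. Bpifa1 made up 84.9% to 91.2% of the summed FPKM of the 10 genes in controls and 51.3% to 61.8% in TNF libraries. The log2 ratio of Reg3g to Bpifa1 was −4.85 to −4.23 in controls and −2.12 to −1.58 in TNF libraries, without overlap. The corresponding ratio of Bpifb1 to Bpifa1 was −12.56 to −9.21 and −8.36 to −7.56. These ratios, which do not depend on how the libraries were scaled, show unequal change against Bpifa1. Of 11 ratios computed, 6 did not overlap between the groups. Ltf to Lcn2, Slpi to Wfdc2, Pigr to Saa3, Pigr to Slpi and Lcn2 to Reg3g did overlap. All 6 had either Bpifa1 as the denominator or Saa3 as the numerator, so they are not separate results. The 11 pairs were picked by hand, and no share over other gene pairs was taken to set beside this count.

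The genes varied within the groups in different ways. In control replicate 4, Bpifb1, Reg3g, Lcn2, Bpifa1, Wfdc2 and Saa3 were 1.20 to 2.91 log2 units below the mean of the other controls, Pigr was 0.49 below, and Slpi and Ltf were 0.60 and 0.28 above. The basal cell marker list, 13 rows that were all tested, summed to 2615, 3342 and 764 FPKM in controls and to 7769, 5248 and 4992 FPKM in TNF libraries. Most of this sum came from the merged row of Krt14 and Krt17, with means of 1478 FPKM in controls and 4363 FPKM in TNF libraries. Neither that row (adjusted p = 0.0741, limma) nor Krt5 (0.110) passed. Of the 13 rows 5 were higher (Itgb4, Itga6, Lama3, Col17a1 and Sox2) and 0 lower, beside 10.9% and 27.2% of all rows. At an unadjusted p below 0.05 (limma) 7 were higher and 0 lower, with no share over all rows given at that level. The count of higher markers was 2 to 6 without single libraries, lowest without TNF replicate 3, beside 6.24% of all rows. After median-of-ratios scaling 9 markers were higher, beside 15.6%. Their part in the changes of the 10 genes was not tested. After scaling to this list the log2 changes of Slpi, Saa3, Pigr and Lcn2, which passed, were 1.69 (Lcn2) to 3.61 (Saa3). Ltf was then at 1.26 (adjusted p = 0.0700), Reg3g at 1.16 (adjusted p = 0.0745) and Wfdc2 at 0.25 (adjusted p = 0.679), and these did not pass.

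In TNF replicate 1, Saa3 and Slpi were 1.64 and 1.40 log2 units above the mean of the other TNF libraries, Ltf, Lcn2, Wfdc2, Bpifb1 and Reg3g were 0.48 to 0.80 above, Bpifa1 was 0.08 above and Pigr was 1.72 below. Fibroblast markers summed to 73.4 FPKM in TNF replicate 1 against 1104 and 1573 FPKM in TNF replicates 3 and 4, and endothelial markers to 4.67 against 202 and 286 FPKM. Among TNF libraries, Saa3, Slpi, Ltf, Lcn2, Reg3g, Wfdc2, Bpifb1 and Bpifa1 were highest in replicate 1, and Pigr was lowest there. The basal cell sum was also highest there, at 7769 FPKM. The part of fibroblasts and endothelial cells in these levels was not tested. In controls the fibroblast sum was 147 to 537 FPKM and the endothelial sum 64.3 to 118 FPKM. Of 7 tested fibroblast markers 1 was higher and 1 lower, and of 7 endothelial markers 0 passed, also at an unadjusted p below 0.05 (limma). Without TNF replicate 1, 4 fibroblast and 6 endothelial markers were higher, beside 14.7% of all rows.

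**Figure D3:**
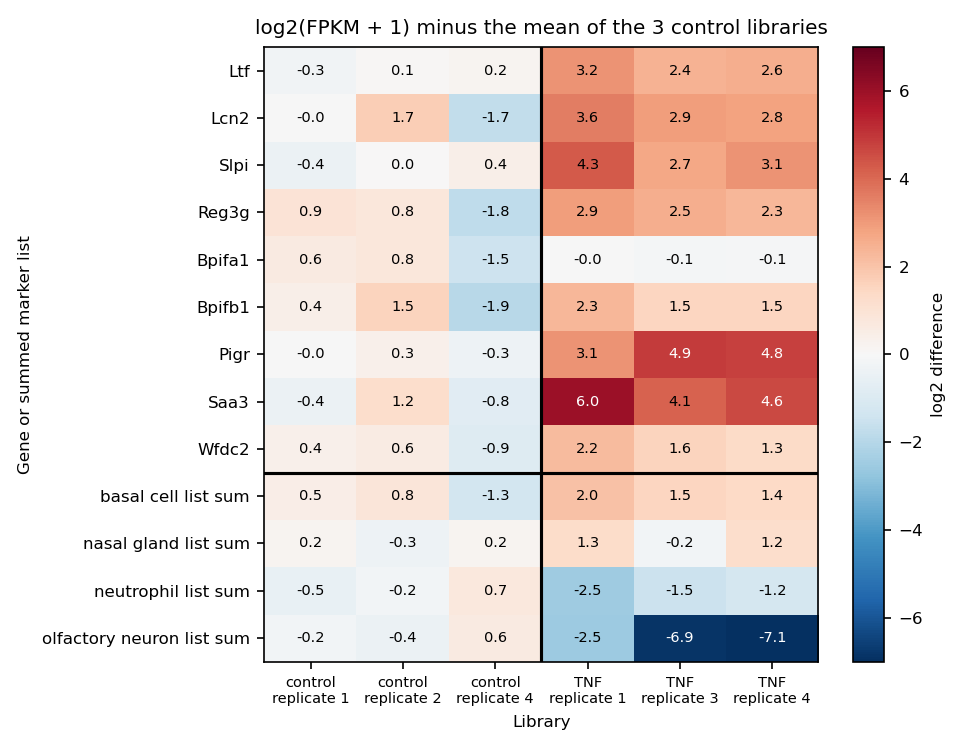
Difference in log2(FPKM + 1) from the mean of the 3 control libraries for the 9 tested genes (upper rows) and for the summed FPKM of 4 marker lists (lower rows), by library (columns), with blue below and red above 0. The TNF columns are red for all genes but Bpifa1, the basal cell sum is lowest in control replicate 4 (−1.3), and the neutrophil and olfactory neuron sums are below 0 in every TNF library.

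Cells known to store or secrete these proteins were examined through their own markers, beside 10.9% higher and 27.2% lower over all rows. Ltf and Lcn2 are also genes of neutrophil granules. The neutrophil list summed to 86.8 to 204 FPKM in controls and to 21.3 to 51.6 FPKM in TNF libraries. The fall of this sum was largely that of Il1b, with means of 83.8 FPKM in controls and 8.48 FPKM in TNF libraries. In TNF libraries Mmp9, at a mean of 25.7 FPKM, contributed most. Of the 13 rows in the list 4 were tested, with 3 lower (S100a8, S100a9 and Il1b) and 0 higher, and the counts were the same at an unadjusted p below 0.05 (limma). Mmp9, the fourth, was at 1.14, 34.99 and 40.98 FPKM in TNF libraries against 2.48 to 5.53 FPKM in controls, and it passed when TNF replicate 1 was left out. The granule genes Ngp, Camp, Mpo and Elane were at or below 0.223 FPKM in every library, and Ly6g was listed at 0 in 5 libraries and at 0.0445 FPKM in the other. The part of neutrophils in the levels of Ltf and Lcn2 was not tested. Of 14 tested myeloid markers 9 were lower and 2 higher (Cd14 and Cd74), and without TNF replicate 3 or 4 the lower ones numbered 3 and 5. The call of Cd74 (adjusted p = 0.0484) was lost without any single library other than control replicate 4 (adjusted p = 0.0729 to 0.166). That list summed to 851 to 5080 FPKM in controls and to 5623 to 8092 FPKM in TNF libraries, mostly from Cd74, which encodes the invariant chain of class II molecules.

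No marker of nasal glands passed the test. Of 11 tested gland markers 0 passed, also at an unadjusted p below 0.05 (limma), and the list summed to 303 to 428 FPKM in controls and 340 to 931 FPKM in TNF libraries. Obp1a, an odorant-binding protein gene of nasal glands, measured 60.8, 3.33 and 77.4 FPKM in controls and 233, 0.380 and 262 FPKM in TNF libraries. TNF replicates 3 and 4 thus differed widely in Obp1a. Aqp5, the gland marker of highest mean, averaged 167 FPKM in controls and 299 FPKM in TNF libraries. The part of glands in the levels of the 10 genes was not tested. Of 6 tested goblet and club cell markers 2 rose, the trefoil factor gene Tff2, from 7.89 ± 5.02 to 44.4 ± 1.999 FPKM (SD, n = 3), and the transcription factor gene Spdef. The defining markers Scgb1a1 and Muc5ac were at most at 0.156 and 0.0389 FPKM, and Tff3 was listed at 0 in all libraries. Of 7 ciliated cell markers 1 rose and 4 fell, of 9 sustentacular cell markers 0 rose and 5 fell, of 10 B and plasma cell markers 2 rose and 4 fell, and all 14 tested olfactory neuron markers fell. Over all rows 10.9% were higher and 27.2% lower. Without control replicate 1 or 2 or TNF replicate 3 or 4, 2 sustentacular cell markers fell. Without any single library other than TNF replicate 1, 7 to 9 neuron markers fell.

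Of other secreted antimicrobial and acute phase genes, more rose than fell. Of 19 genes tested from a list of 38, 13 rose, 3 fell and 3 did not pass, with a median log2 change of 2.25 against −0.22 over all rows. Of all rows 10.9% were higher and 27.2% lower. Pglyrp1, a peptidoglycan recognition protein, went from 16.03 ± 4.28 to 221 ± 50.8 FPKM (log2 change 3.71 ± 0.27, adjusted p = 0.000397). Sftpd, the collectin surfactant protein D, went from 35.1 ± 12.4 to 306 ± 27.8 FPKM, and the transmembrane mucin Muc1 from 13.1 ± 5.13 to 111 ± 26.2 FPKM. Lyz1, a lysozyme gene, was at 0.379 ± 0.178 and 18.4 ± 5.97 FPKM, a value that is uncertain because its near-identical copy Lyz2 was at 158 to 489 FPKM in controls and 155 to 487 FPKM in TNF libraries. The 3 that fell were S100a8 and S100a9, subunits of calprotectin, and the pentraxin Ptx3. The count of genes that rose was 11 to 13 when any library was left out.

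**Figure D4:**
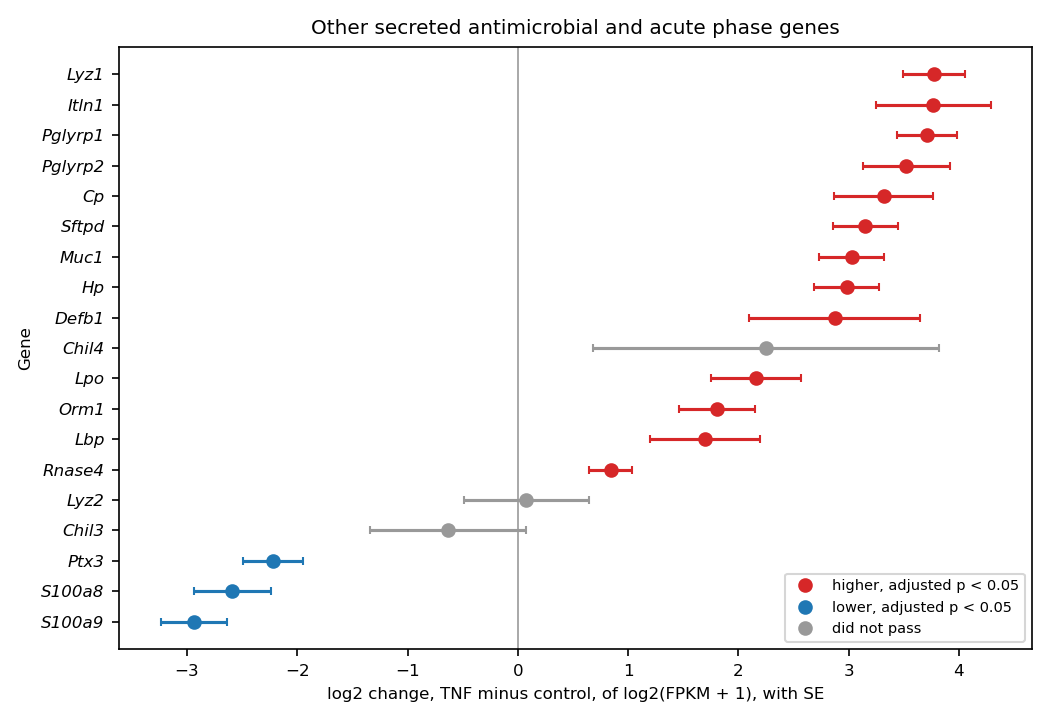
Log2 change (TNF minus control, x axis, bars SE) of the 19 tested genes of the list of other secreted antimicrobial and acute phase genes, red where higher, blue where lower and grey where the adjusted p was not below 0.05. Most points are red and lie between 0.84 (the merged row of Ang and Rnase4) and 3.78 (Lyz1), while S100a8, S100a9 and Ptx3 lie below −2.

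Relatives of the 10 genes gave mixed results, beside 10.9% higher and 27.2% lower over all rows. A list of 20 other genes held WAP genes together with Spint3 and Spint4. Of these 20 genes 5 were tested, all WAP genes, and 2 rose, both at low level. They were Wfdc21, from 0.259 to 4.24 FPKM, and Wfdc1, from 0.546 to 2.58 FPKM. Without control replicate 1 the count was 1, since Wfdc21 missed the threshold (adjusted p = 0.0546). Wfdc3, Wfdc17 and Wfdc18 did not pass, with Wfdc18 at 590 to 3590 FPKM across the TNF libraries. Of 14 other BPI fold rows 8 were tested, 2 rose and 1 fell. Bpifb3 rose from 70.5 ± 22.8 to 247 ± 18.0 FPKM (log2 change 1.84 ± 0.25, adjusted p = 0.00197), and Lbp, the lipopolysaccharide binding protein gene, from 26.2 ± 15.4 to 74.7 ± 7.70 FPKM. Bpifb6 fell, from 94.1, 91.6 and 16.05 FPKM in controls to 10.6, 1.63 and 3.21 FPKM in TNF libraries. This call did not hold without control replicate 1 or 2 or TNF replicate 3 or 4 (adjusted p = 0.0528 to 0.0636), and that of Lbp without control replicate 2 or any TNF replicate (0.0519 to 0.102). Bpifa2, Bpifb4, Bpifb9a and Bpifb9b did not pass and Bpifb5 was at or under 1.52 FPKM. The neighbours Saa4 and Reg3a were listed at 0 in all libraries, and Reg3b, Reg3d and Saa2 were at or below 0.233 FPKM.

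Of 9 tested genes of immunoglobulin A transport and homing, 1 rose, 2 fell and 6 did not pass, shares near the 10.9% higher and 27.2% lower over all rows. The merged row of immunoglobulin heavy chain constant genes, Igha and Ighm among them, measured 28.5, 39.5 and 269.6 FPKM in controls and 197, 186 and 140.2 FPKM in TNF libraries. The joining chain gene Jchain, named Igj in the table, had 0.218 and 0.0769 FPKM in the first pair of controls, 105 FPKM in control replicate 4 and 34.3 to 67.4 FPKM in TNF libraries. Control replicate 4 thus held more of these transcripts than any TNF library, while Pigr was at its lowest there. Ccl28, a chemokine that draws immunoglobulin A plasma cells to mucosae, fell from 21.0 ± 4.44 to 1.12 ± 0.698 FPKM, and Tnfrsf13b fell from 4.08 ± 2.62 to 0.395 ± 0.105 FPKM. Cxcl13, which attracts B cells, had 3.70, 770.1 and 817 FPKM in TNF libraries, and its rise (adjusted p = 0.0319) was lost without any library other than TNF replicate 1 (adjusted p = 0.0828 to 0.0976). Without control replicate 4 the list counted 3 higher, without control replicate 4 and TNF replicate 1 together 6 higher, and without control replicate 1 or 2 or TNF replicate 3 or 4 it counted 0 higher. Without TNF replicate 1 it counted 2 higher.

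Of 29 tested genes for factors and receptors known to act on such genes, 15 rose, 0 fell and 14 did not pass. Over all rows 10.9% were higher and 27.2% lower. The median log2 change of the 29 genes was 1.22. At an unadjusted p below 0.05 (limma) 19 were higher and 0 lower, with no share over all rows given at that level. Stat3, which mediates signals of the interleukin 6 family, rose from 58.3 ± 6.46 to 221 ± 15.9 FPKM (log2 change 1.91 ± 0.16, adjusted p = 0.000476), although an exon of it overlaps Stat5a. The epithelial ETS factor gene Ehf rose from 14.4 ± 6.67 to 109 ± 18.6 FPKM, and the receptor genes Osmr and Lifr rose by 2.63 ± 0.36 and 1.42 ± 0.22. Cebpb, a C/EBP factor gene, was at 659 to 954 FPKM in controls and 1005 to 1260 FPKM in TNF libraries and did not pass, while Cebpd rose by 2.29 ± 0.50. The count was 12 to 17 when any library was left out, and 1 after scaling to the basal cell marker list, where the calls of Stat3, Osmr and Lifr were lost.

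Of 11 tested receptors for the secreted proteins, 4 rose, 2 fell and 5 did not pass, with a median log2 change of 0.42, against 10.9% higher and 27.2% lower over all rows. Itln1, an intelectin named as a lactoferrin receptor and held by the antimicrobial list too, rose from 0.267 ± 0.0271 to 19.2 ± 11.3 FPKM, and Lrp1, which takes up lactoferrin, from 2.88 ± 1.34 to 12.2 ± 3.19 FPKM. Slc22a17, which encodes a receptor for lipocalin 2, fell from 114 ± 60.2 to 25.0 ± 8.47 FPKM. Cd36, a scavenger receptor that binds serum amyloid A, fell by 1.29 on the log2 scale. After scaling to the basal cell marker list 1 receptor gene was higher and 4 were lower.

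Among 9393 tested genes with a mean of at least 5 FPKM, those closest in pattern were found by the root mean square difference of centred log2(FPKM + 1) over the 6 libraries, a description with no test. Wfdc2 lay nearest to Trim29 (0.08 log2 units) and to Sox2 (0.12). Ltf lay nearest to Pdlim4 (0.11) and Cfap45 (0.23), Slpi to Ifi27l2a (0.22) and Cd14 (0.32), and Pigr to S1pr3 (0.21) and F2rl1 (0.30). Reg3g lay near to Anxa8 (0.29), and Lcn2 to Dapk2 (0.44) and Tnfaip2 (0.45). Bpifb1 lay nearest to Arhgap8 (0.15) and Ifitm1 (0.23), and Bpifa1 to Arhgef26 (0.15) and Ces2g (0.18). Saa3 lay farther from any gene, with Aadac at 0.61 and Chil1 at 0.65.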

How the data were processed

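Per the labels' protocols, sorted cells were lysed in Trizol LS, and cDNA amplified with a Clontech SMARTer kit went into Nextera libraries. The submitters' processing notes list the tools bcl2fastq, FastQC 0.10.1, Cuffdiff 2.2.1 and TopHat2 2.1.1, and the build mm10. Their roles and settings were not given in the sources used here. Deposited values are FPKM, 1 per library and row, in a table also titled as raw counts. Of its values above 0, 99.98% were not whole, so no count model was used. Read depth is unknown.

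Rows with 1 FPKM or more in at least 3 libraries (15037) were fitted on log2 of FPKM plus 1, by limma 3.58.1 with a trend of the variance on the mean level (R 4.3.3). The model held the 2 groups alone. Benjamini-Hochberg adjustment ran over all rows, with a threshold of 0.05. Fold changes are on this scale, which understates changes of low genes. The procedure was also run on simulated data with independent noise in each row. Those data held no deviating libraries such as control replicate 4 and TNF replicate 1, so the run does not vouch for the calls. Positions are those of the table, counted from 1.

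The 10 genes and all lists (6 pathway and 11 marker lists, 253 symbols, 3 unmatched, 4 matched by older names) were chosen with earlier results of these data known. Beyond the 10 genes, the rule names up to 4 called genes of smallest p per pathway list, relatives of the 10 genes above 1 FPKM in any library, and the 2 marker genes of highest mean per list, of which most are given within the list sums. Other list genes named were chosen after their values were seen. The 16 alternatives were other filters, pseudocounts and scalings, a robust variance, the replicate block and omissions of libraries. Dixon's rule for a sample far from its group was not applied to these groups of 3 libraries.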

Additional observations from a re-analysis of the deposited data

How the results depend on the processing

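Slpi, Saa3 and Pigr stayed higher and past the threshold under all 16 alternatives, and Ltf under 15. Leaving out single libraries gave log2 changes of 2.25 to 3.97 for Lcn2, 1.73 to 3.08 for Reg3g, 1.23 to 1.97 for Wfdc2, 0.81 to 2.56 for Bpifb1 and −0.80 to 0.34 for Bpifa1, and 4 to 8 of the 10 genes were higher. Over all rows it gave 938 to 2205 higher and 2802 to 4946 lower, for pathway lists 28 to 38 higher genes and 7 to 9 lower, and for marker lists 8 to 20 higher and 25 to 43 lower (13 and 40 with all libraries). Without control replicate 1, Bpifa1 was at 0.25, and without control replicate 2 at 0.34. Without control replicate 4 and TNF replicate 1 together, 7 of the 10 genes were higher and 1 lower, with log2 changes of 2.02 for Lcn2, 1.57 for Reg3g, 0.99 for Wfdc2, 0.55 for Bpifb1 and −0.82 for Bpifa1. Over all rows 2835 were higher, and of the marker genes 29 were higher and 50 lower.

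Scaling to the basal cell marker list gave 4 higher genes and 1 lower among the 10, 219 higher and 8670 lower rows, 12 higher and 15 lower pathway genes (35 and 8 as deposited) and 1 higher marker gene. Ltf was then at 1.26, Reg3g at 1.16, Wfdc2 at 0.25 and Bpifa1 at −1.52, and the marker gene Xbp1 at −0.30. Bpifa1 was at 0.18 after median-of-ratios scaling, 0.0787 after upper-quartile scaling and 0.0615 after quantile normalization, which gave 2658 higher rows. Without the filter on low values Reg3g was at 2.61 with an adjusted p of 0.0559, and a filter of 5 FPKM gave 2655 lower rows, with fewer rows tested. The causes of the other differences were not tested.

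Replicate numbers 1 and 4 occur in both groups. Their samples did not deviate together (correlations of −0.06 and −0.09 between deviations), and 2 pairs cannot establish a pairing. With the replicate number as a block, 744 rows were higher and 2246 lower, 8 of the 10 genes were higher, Bpifb1 passed at 2.68 and Bpifa1 was at 0.37. Depth is unknown, so no floor can be given for Saa1 or other values near 0.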

Other observations

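Several secretory genes of nasal glands varied between libraries in a pattern that did not follow the groups. In the library order used above, Obp2a measured 49.1, 0.684 and 25.1 FPKM in controls and 2.03, 0 and 22.7 FPKM in TNF libraries. Lcn11, a lipocalin gene, was at 16.2, 0.394 and 30.95 FPKM in the controls and at 54.1, 0.386 and 51.5 FPKM in the TNF libraries in the same order. Mup4, which encodes a major urinary protein, was at 24.9, 0.657 and 55.8 FPKM and at 4.92, 0.116 and 57.4 FPKM. Control replicate 2 and TNF replicate 3 were the lowest library of their group for each of these genes. Bpifb9b was at 80.7 FPKM in TNF replicate 4 and at 0.176 FPKM in TNF replicate 1.

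Wfdc18, a WAP gene outside the 10, measured 709, 606 and 713 FPKM in controls and 3590, 590 and 644 FPKM in TNF libraries, so that a single library stood above the other 5. Defb1, which encodes a constitutive epithelial beta-defensin, was at 24.6, 18.4 and 5.33 FPKM in controls and at 312, 60.4 and 63.4 FPKM in the TNF libraries. With all libraries it rose by 2.87 ± 0.77 on the log2 scale (SE, limma, adjusted p = 0.0261), beside 10.9% of all rows. Control replicate 4 was its lowest library and TNF replicate 1 its highest, and its change without them is not given here.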
